A study of Mus musculus with 10 samples.

Results

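The enzymes of heme synthesis were examined in epididymal white adipose tissue (eWAT) of 10 mice. The members were the 8 genes *Alas1*, *Alas2*, *Alad*, *Uros*, *Urod*, *Cpox*, *Ppox* and *Fech*, chosen by name among the 34797 gene names that the array carries. They were measured by 10 probes, which are DNA oligos of 60 bases. *Alas1* and *Uros* had 2 probes each and the other 6 genes 1 probe each. All 10 mice belonged to 1 group. They were male C57BL/6JOlaHsd wildtype mice, listed under the strain field as C57BL/6J, and carried no transgene. They were aged 9 weeks at the start, received a purified low fat diet for 3 weeks and then the BIOCLAIMS high-fat diet for 12 weeks, all at 29°C. They were then injected with desferrioxamine (DFO), an iron chelator given at 100 mg/kg body weight daily for 5 days. They were killed on day 6, 2 h after food was removed. Mice are named by the replicate number in their labels.

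The arrays carried 2 colours, 1 mouse on each array with its own RNA in the dye Cy5 and a common pool in Cy3. The pool holds RNA of every mouse of the wider study, controls and these 10 mice included. No control mice were measured on the arrays analysed here, and the dyes were not swapped. Values are therefore differences between DFO-injected mice, not effects of DFO, and whether a ratio differs from 0 was not tested. The log2 ratio of Cy5 to Cy3 is called the log2 ratio below: a difference of 1 between mice is a doubling of the ratio.

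Heme is built from glycine and succinyl-CoA by a chain of enzymes that starts and ends in the mitochondrion. ALAS makes the first product and sets the rate of the pathway. *Alas1* encodes the form that most tissues use and *Alas2* the form of developing red cells, whose mRNA carries an iron-responsive element. ALAD, UROS and UROD act in the cytosol, CPOX and PPOX in or at the mitochondrion, and FECH inserts the iron. Heme serves cytochromes and hemoglobin, and it is degraded by the heme oxygenases.

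Mice 4, 5, 6 and 7 stood apart from the other 6 mice over the whole array. They lay together at one end of the first principal component of 27718 expressed probes, which held 75.1% of the variance. *Cfd*, the adipocyte gene of adipsin, had log2 ratios between -4.69 and -3.36 in these 4 mice and between -0.70 and 1.44 in the other 6. All 8 adipocyte markers examined were expressed, and the mean log2 ratio of the list ran from -2.44 to -1.41 in mice 4 to 7 and from -0.19 to 0.65 in the others. The 6 macrophage markers with a probe (among them *Emr1*, *Cd68* and *Itgax*) went the other way, with list means from 0.79 to 1.03 in mice 4 to 7 and from -1.17 to -0.11 in the others. All 6 kept this order in each of the 5 scalings compared, whereas *Cidec* and *Fabp4* of the adipocyte list lost theirs under median centring and *Lpl* in each of the other scalings. Lower adipocyte and higher macrophage values in the same 4 fat pads accompany each order of mice given below. In bulk tissue, fewer cells of a type and less RNA per cell cannot be told apart, and the part of these markers in the members' values was not tested. The 2 sets of mice were read from the data, so they were not averaged or tested against each other.

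*Alas2*, the erythroid form of the rate-limiting enzyme, differed most between mice. Its log2 ratios in mice 1 to 10 were -0.01, 0.08, -0.91, -1.25, -1.79, -1.33, -1.88, 0.28, -0.36 and -0.18. The mean was -0.74 ± 0.80 (SD, n = 10), and the highest mouse had 4.49 times the ratio of the lowest. The 4 lowest values were those of mice 4 to 7, with mouse 3 next to them. The probe lies on chromosome X at chrX:147004993-147005052, forward strand, in mm9, the build of the array's annotation. Its sequence is shown because *Alas2* differed most, and capitals mark the only stop triplet, TAA, in the frame that starts at its first base. Which frame is the coding one was not checked against an annotation:
*Alas2* probe: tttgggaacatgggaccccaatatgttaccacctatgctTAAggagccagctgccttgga

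**Figure D1:**
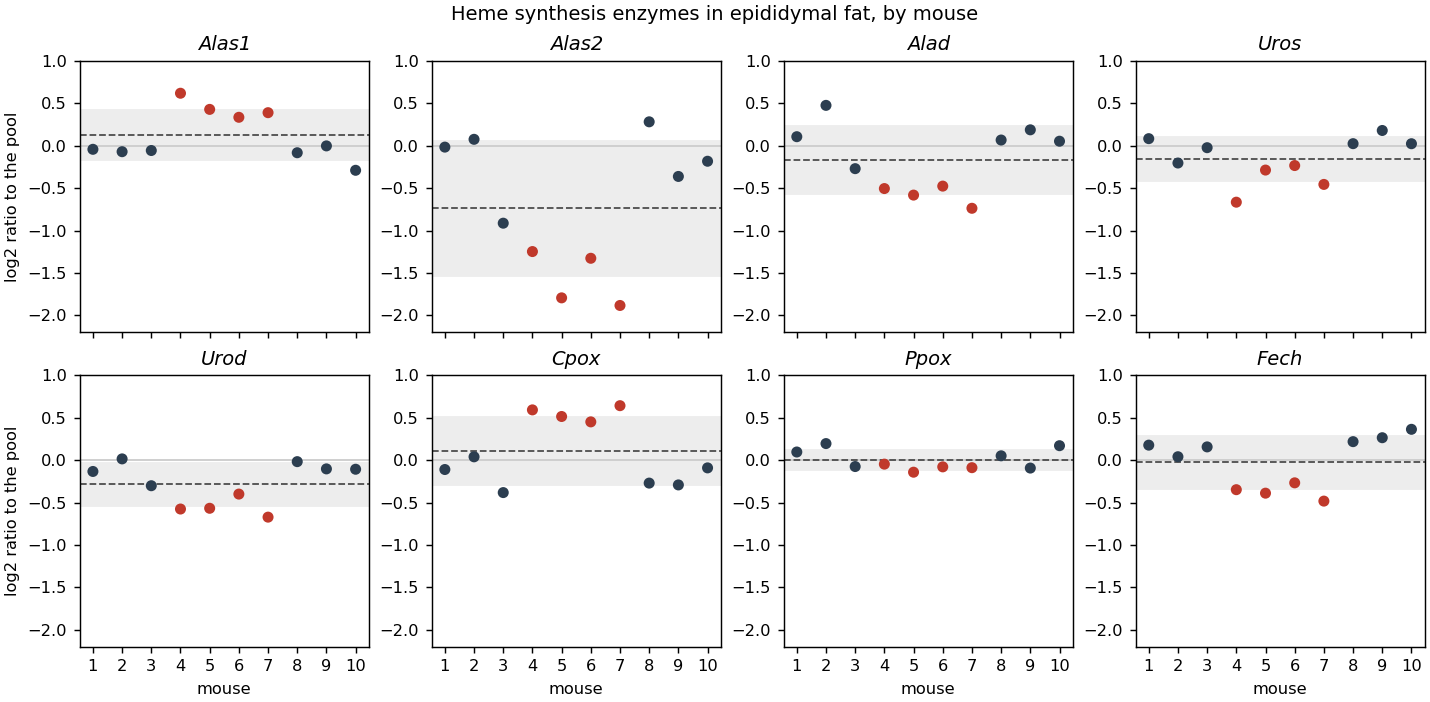
Log2 ratio of Cy5 (mouse) to Cy3 (common pool) on the y axis for each of the 10 mice on the x axis, 1 panel per enzyme gene, with the dashed line at the mean and the grey band at 1 SD. Red points are mice 4 to 7, which hold the 4 lowest values of *Alas2*, *Alad*, *Uros*, *Urod* and *Fech* and the 4 highest of *Alas1* and *Cpox*; *Alas2* ranges from -1.88 to 0.28 and *Ppox* from -0.14 to 0.20.

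*Alas1*, the form used by most tissues, had its values the other way round on its brighter probe, at chr9:106136284-106136343 on the reverse strand (mm9). The log2 ratios in mice 1 to 10 were -0.04, -0.07, -0.05, 0.62, 0.43, 0.34, 0.39, -0.08, -0.00 and -0.29, with a mean of 0.12 ± 0.29 (SD, n = 10). The 4 highest values were those of mice 4 to 7, with no overlap with the other 6 mice. The highest mouse had 1.88 times the ratio of the lowest.

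The second *Alas1* probe, at chr9:106135796-106135855, lies 488 bases further along the direction of transcription and gave another order. Its log2 ratios in mice 1 to 10 were 0.24, 0.41, 0.26, 0.24, -0.09, 0.24, -0.06, 0.10, 0.02 and -0.04. The highest value was that of mouse 2 and the lowest that of mouse 5, and mice 4 to 7 were spread among the others. Its mean of 0.13 ± 0.17 (SD, n = 10) was close to that of the other probe, but the spread was smaller. Among mice 1 to 3 and 8 to 10, which form 1 cluster on that component, the r between the 2 probes was 0.46, given as a description. Both probes were well above background in both dyes on all 10 arrays, but their signals were far apart. The median Cy5 signal was 26100.8 for the brighter probe and 521.25 for the second. The upstream probe holds the letters AATAAA, the usual signal for cleavage of an mRNA's end, from its base 51, and the downstream probe does not. Of all probes on the array, 10.1% hold these letters in the printed strand, and a match is no evidence of cleavage there. Any statement about *Alas1* thus depends on which probe is read.

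**Figure D2:**
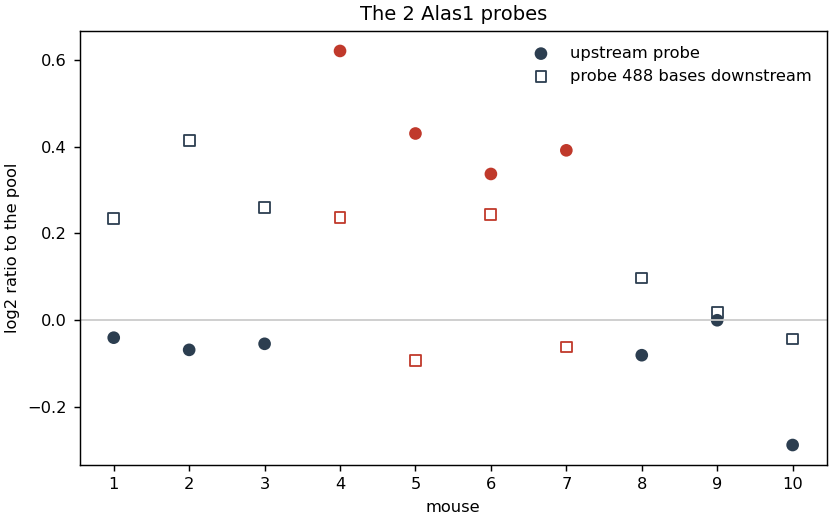
Log2 ratio to the common pool (y axis) of the 2 *Alas1* probes in each of the 10 mice (x axis), with circles for the upstream probe, squares for the probe 488 bases downstream and red for mice 4 to 7. The circles of mice 4 to 7 lie between 0.34 and 0.62, above all other circles, whereas their squares lie between -0.09 and 0.24, among the other squares.

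*Alad*, the enzyme that joins 2 molecules of aminolevulinate, had log2 ratios of 0.11, 0.48, -0.27, -0.50, -0.58, -0.47, -0.74, 0.07, 0.19 and 0.05 in mice 1 to 10. The mean was -0.17 ± 0.40 (SD, n = 10), and the highest mouse, number 2, had 2.32 times the ratio of the lowest, number 7. The 4 lowest values were in mice 4 to 7. The probe lies at chr4:62172559-62172618 on the reverse strand of mm9. It and the *Ppox* probe are printed as those of an enzyme with a wide and an enzyme with a narrow spread between mice:
*Alad* probe: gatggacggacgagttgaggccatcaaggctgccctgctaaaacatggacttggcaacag
*Ppox* probe: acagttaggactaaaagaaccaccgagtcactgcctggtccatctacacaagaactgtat

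*Uros* and *Urod* encode the next cytosolic steps, in which the linear chain is closed into a ring and then trimmed. The *Uros* probe at chr7:140878069-140878128 gave 0.09, -0.20, -0.02, -0.66, -0.29, -0.23, -0.45, 0.03, 0.18 and 0.03, with a mean of -0.15 ± 0.26 (SD, n = 10). Mice 4 to 7 were lowest by a narrow margin, since mouse 6 at -0.23 lay next to mouse 2 at -0.20. The second *Uros* probe, 5749 bases upstream at chr7:140883818-140883876, was well above background on 8 arrays in Cy5 and 3 in Cy3 and was not tested. It ran from -0.21 in mouse 5 to 0.37 in mouse 6 with mice 4 to 7 spread among the others.

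*Urod*, at chr4:116662850-116662909, had log2 ratios of -0.13, 0.02, -0.30, -0.58, -0.57, -0.40, -0.67, -0.02, -0.10 and -0.11 in mice 1 to 10. The mean was -0.29 ± 0.25 (SD, n = 10). The 4 lowest values were again those of mice 4 to 7, and the highest mouse had 1.61 times the ratio of the lowest.

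*Cpox*, the oxidase of the mitochondrial intermembrane space, went the opposite way from the cytosolic steps before it. Its log2 ratios in mice 1 to 10 were -0.11, 0.04, -0.38, 0.59, 0.52, 0.45, 0.64, -0.27, -0.29 and -0.09, with a mean of 0.11 ± 0.40 (SD, n = 10). The 4 highest were mice 4 to 7, with 0.45 as their lowest value against 0.04 as the highest of the other mice. The probe lies at chr16:58680403-58680465 on the forward strand of mm9.

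*Ppox*, the next oxidase, varied least of the 8. Its log2 ratios in mice 1 to 10 were 0.10, 0.20, -0.07, -0.05, -0.14, -0.08, -0.09, 0.05, -0.09 and 0.17, with an SD of 0.12 (n = 10). Mice 4 to 7 overlapped with the others, and the highest mouse had 1.26 times the ratio of the lowest. Its 60 bases lie within a span of 178 bases, chr1:173207452-173207629 on the reverse strand of mm9, so the probe crosses at least 1 exon junction.

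*Fech*, the enzyme that inserts iron into the ring, had log2 ratios of 0.18, 0.04, 0.16, -0.35, -0.39, -0.27, -0.48, 0.22, 0.27 and 0.36 in mice 1 to 10. The mean was -0.03 ± 0.31 (SD, n = 10). Mice 4 to 7 lay below all others, with -0.27 as their highest value against 0.04 as the lowest of the other 6. The highest mouse had 1.80 times the ratio of the lowest.

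Of the 8 genes, 5 thus had their 4 lowest log2 ratios in mice 4 to 7 (*Alas2*, *Alad*, *Uros*, *Urod*, *Fech*), and *Alas1* and *Cpox* had their 4 highest there. Among the 25049 probes tested, 23.2% had the 4 lowest values in these mice and 19.2% the 4 highest. The orders differed in how far they depended on the scaling. *Alas1* on its brighter probe and *Cpox* held the 4 highest values in mice 4 to 7 in each of the 5 scalings compared. *Alas2* and *Alad* kept the 4 lowest in all but median centring, under which none of the 5 genes did and 7.04% of all probes had this order. *Uros* lost it also in the log ratio of the scanner software, and *Uros*, *Urod* and *Fech* lost it in the deposited normalized values. Under median centring, the median of all probes' mean log2 ratios was 0.36 in place of -0.01, so the level of a gene relative to the pool depends on this choice.

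The spread between mice was set against that of the pool, which was the same RNA on each array. Of the 8 enzymes, 7 varied more in Cy5 than in Cy3 (Pitman-Morgan test for paired variances, 2-sided, Benjamini-Hochberg adjusted over all probes), as did 59.7% of the 25049 probes tested. *Alas2* had an SD of log2 signal of 0.85 over the mice and 0.11 in the pool (adjusted p = 1.22e-05). *Fech* had 0.30 and 0.04 (adjusted p = 6.89e-05), and *Alad* 0.40 and 0.06 (adjusted p = 7.06e-05). The SDs were 0.41 and 0.08 for *Cpox*, 0.27 and 0.06 for *Uros*, 0.24 and 0.07 for *Urod* and 0.33 and 0.12 for *Alas1*, with adjusted p between 0.000254 and 0.0101. *Ppox* did not pass, with 0.10 and 0.08 (adjusted p = 0.672). The median over the 8 genes was 0.32 in Cy5 and 0.07 in Cy3, and over all probes 0.20 and 0.08. The second *Alas1* probe passed just inside the threshold (adjusted p = 0.0494). The calls rest on normalization between arrays: without it only *Alas2* passed (adjusted p = 0.00883). With median centring 5 passed, without *Uros* (adjusted p = 0.0712) and *Fech* (adjusted p = 0.0727). A probe that does not pass can still have a wide range of log2 ratios. The adipocyte gene *Fabp4*, with a median Cy5 signal of 182422, ran from -2.08 to 0.80. Its SDs were 0.58 in Cy5 and 0.56 in Cy3, and it did not pass (adjusted p = 0.823).

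**Figure D3:**
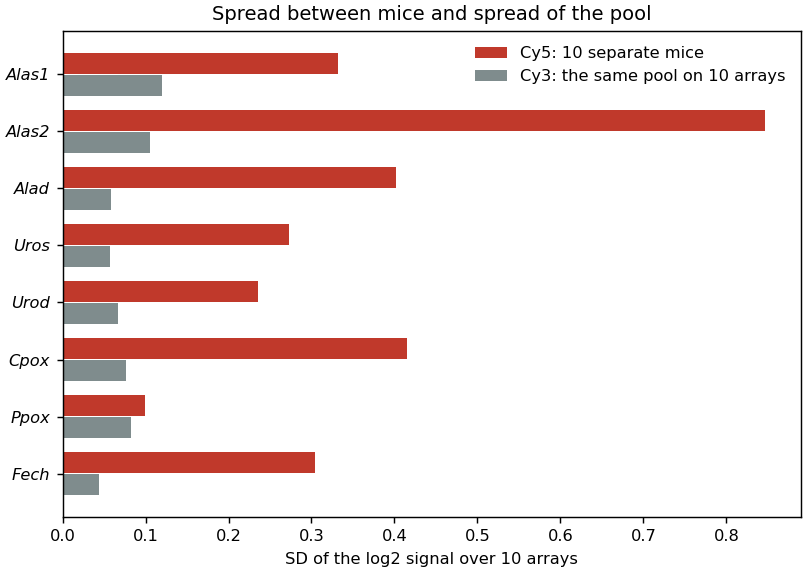
SD of the log2 signal over the 10 arrays (x axis) for each enzyme gene (y axis), in red for Cy5, which holds a separate mouse on each array, and in grey for Cy3, which holds the same pool on each. The red bar is longest for *Alas2* at 0.85 against 0.11 for the pool, and for *Ppox* the bars are 0.10 and 0.08.

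The 10 arrays lay on 5 slides, each with 2 mice. The slide passed the threshold for none of 27718 probes (limma's moderated F test, Benjamini-Hochberg adjusted), with 1137 at an unadjusted p under 0.05. For the enzymes the unadjusted p lay between 0.0556 and 0.473. Mice 3 and 4 shared a slide, as did mice 7 and 8, so the members can be compared within these slides. From mouse 3 to mouse 4 the log2 ratio differed by 0.98 for *Cpox*, -0.50 for *Fech*, -0.33 for *Alas2* and -0.23 for *Alad*. From mouse 7 to mouse 8 it differed by -0.91 for *Cpox*, 0.70 for *Fech*, 2.17 for *Alas2* and 0.80 for *Alad*. Mice 1 and 2, 5 and 6, and 9 and 10 also shared slides, with differences of 0.15, -0.06 and 0.20 for *Cpox* and -0.14, 0.12 and 0.10 for *Fech*. For *Alas2* these were 0.09, 0.47 and 0.18, and for *Alad* 0.37, 0.11 and -0.13. The difference between mice 3 and 4 was thus smaller than that between mice 5 and 6 for *Alas2*, and than that between mice 1 and 2 for *Alad*.

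*Alas2* followed the globin genes, whose RNA fills red cell precursors and young red cells. The mean log2 ratio of 5 globin probes (*Hba-a1*, *Hba-a2*, *Hbb-b1*, *Hbb-b2*, *Beta-s*) in mice 1 to 10 was 0.18, 0.06, -0.76, -1.41, -2.01, -1.41, -2.02, 0.63, 0.03 and -0.03. Mouse 8 was highest and mouse 7 lowest, as for *Alas2*, and mouse 3 again lay between the other mice and mice 4 to 7. Like *Alas2*, the globins lost this order of mice 4 to 7 under median centring, and *Hbb-b1* also in the deposited values. *Hba-a1* ran from -2.42 to 0.71 and *Hbb-b1* from -1.92 to 0.53. Probes of the nearly identical globin genes can share RNA, so the 5 are not separate measurements. Over the 6 mice that lie together, *Alas2* and the globin mean had an r of 0.944 and a rho of 0.886, given with no p because the globins were picked from the erythroid list after the values were seen. With the mean of the whole erythroid list the r was 0.93 (exact permutation p = 0.0139, adjusted p = 0.236) and the rho 0.714 (exact permutation p = 0.136). Without the 2 of these mice farthest from the median of *Alas2*, the r was 0.249 with the list and 0.487 with the globin mean, so over the 6 mice the relation with the list rests on them. Among mice 4 to 7, which this r does not use, mice 5 and 7 were below mice 4 and 6 in both *Alas2* and the globin mean.

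**Figure D4:**
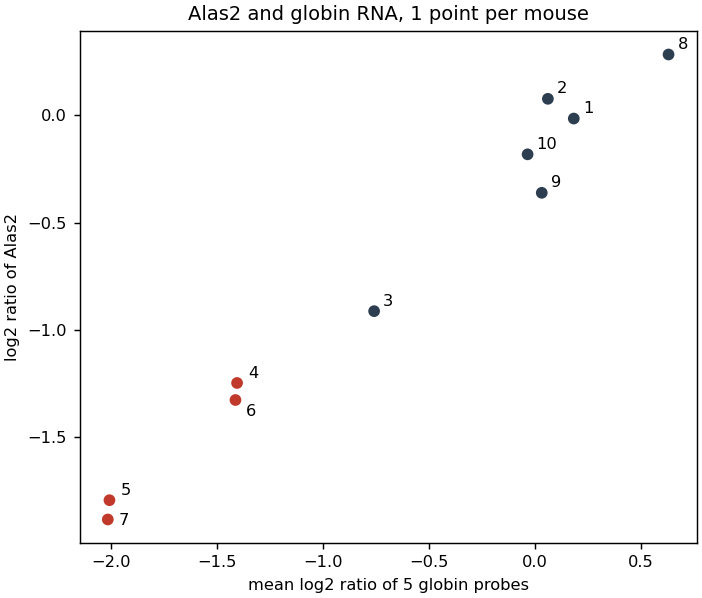
Log2 ratio of *Alas2* (y axis) against the mean log2 ratio of 5 globin probes (x axis), 1 numbered point per mouse, with mice 4 to 7 in red. The points run from mouse 7 at -2.02 and -1.88 to mouse 8 at 0.63 and 0.28, with mouse 3 at -0.76 and -0.91 between the others.

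The remaining expressed erythroid markers followed the globins only in part. Of 17 names in the list, 12 had a probe and 7 were expressed: the 5 globins, *Slc4a1*, the anion exchanger of the red cell membrane, and *Hemgn*, a nuclear protein of red cell precursors. *Ahsp*, *Epb4.2*, *Klf1* and *Rhag* were not well above background, nor was *Gata1*, the main erythroid transcription factor. *Hemgn* ran only from 0.35 to 0.92 and did not pass the test of Cy5 against the pool (adjusted p = 0.802). Its probe was bright, with a median Cy5 signal of 25107.5 beside 19165.5 for *Hbb-b1*. Whether this signal comes from red cell precursors was not tested. The log2 ratios of *Hemgn* in mice 4 to 7 lay between 0.35 and 0.45, below those of the others, from 0.49 to 0.92. This order was lost under median centring and in the deposited values. *Slc4a1* was well above background on 6 arrays in Cy5 and 4 in Cy3 and was not tested. Its values ran from -0.35 to 0.19, with mice 5 and 7 lowest, as for *Alas2*. Within the 6 mice the r with *Alas2* was -0.957 for *Hemgn* and -0.595 for *Slc4a1*, opposite in sign to that of the globins. The mean of the erythroid list lay between -1.43 and -0.93 in mice 4 to 7 and between -0.38 and 0.52 in the others. The part of blood left in the tissue in the *Alas2* values was not tested.

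The promoters of *Alas2* and of globin genes are shown because these genes had like values over the mice. Erythroid genes are known targets of GATA1, which binds sequences with the core GATAA. The windows are the 250 bases before the start of transcription from RefSeq (GRCm38.p6), and capitals mark GATAA or its reverse complement TTATC. Each of these windows holds 1 match. *Alas2* lies at chrX:150547167-150547416 (forward strand), *Hba-a1* at chr11:32283422-32283671 (forward strand) and *Hbb-bs*, the current name of *Beta-s*, at chr7:103827929-103828178 (reverse strand):
*Alas2*: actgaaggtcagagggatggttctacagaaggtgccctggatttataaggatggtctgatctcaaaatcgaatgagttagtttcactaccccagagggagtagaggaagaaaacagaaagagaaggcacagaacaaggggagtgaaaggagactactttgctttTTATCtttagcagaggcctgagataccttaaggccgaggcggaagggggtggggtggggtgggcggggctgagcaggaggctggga
*Hba-a1*: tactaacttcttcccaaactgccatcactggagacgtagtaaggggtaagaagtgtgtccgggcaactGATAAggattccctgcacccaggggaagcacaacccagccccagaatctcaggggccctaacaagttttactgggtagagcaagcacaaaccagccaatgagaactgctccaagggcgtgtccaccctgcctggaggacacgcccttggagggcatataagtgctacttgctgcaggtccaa
*Hbb-bs*: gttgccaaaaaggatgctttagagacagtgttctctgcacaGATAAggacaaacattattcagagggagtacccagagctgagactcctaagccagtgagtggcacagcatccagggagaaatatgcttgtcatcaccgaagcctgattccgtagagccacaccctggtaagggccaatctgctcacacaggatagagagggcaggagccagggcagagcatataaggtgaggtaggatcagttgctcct
Of all 32851 windows of this length, 22.6% hold the letters on either strand. Among the other enzyme genes, *Cpox* had a match in its 1 window and *Uros* in 1 of its 2, and *Alas1*, *Alad*, *Urod* and *Ppox* had none. A match describes these letters and is no measurement of binding.

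The genes most like each enzyme over the 10 mice were taken among up to 18419 probes that were well above background in both dyes on all arrays. For *Alas2* they were *Hbb-b1*, *Hba-a1*, *Slc6a20a*, *Pef1* and *Beta-s*, with r between 0.945 and 0.969 within the 6 mice. For the brighter *Alas1* probe they were *C330006K01Rik*, *Rdh13*, *Armcx3*, *Mapk3* and *Ccdc93* (r of 0.702 to 0.894 within the 6 mice). *Alad* was closest to *Vwf*, *Rarres1* and *Gm5918*, *Uros* to *Cox5b*, *Clock* and *Atp5l*, and *Urod* to *Zfp612*, *Ltbp3* and *Pde4dip*. *Cpox* was closest to *BC046404*, *Utp11l* and *Spice1*, *Fech* to *Hspa12b*, *Rhbdf1* and *Eepd1*, and *Ppox* to *Bst2*, *Fam55c* and *Rlf*. No other enzyme of the pathway was on any of these lists.

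Relations between the enzymes were measured within the 6 mice, since mice 4 to 7 form a cluster of their own. Of the 28 pairs of enzymes, 13 had an r above 0 and 15 below 0, between -0.599 and 0.919. None of the 34 relations computed passed the threshold after adjustment, and the lowest adjusted p was 0.236. The exact test over 6 mice has 720 orders and cannot give a p under 0.00139. The highest r was that of *Cpox* and *Ppox*, the neighbouring oxidases, at 0.919 (exact permutation p = 0.00694, adjusted p = 0.236) with a rho of 0.943 (exact permutation p = 0.0167, adjusted p = 0.567). *Alas2* and *Urod* had an r of 0.905 (exact permutation p = 0.0222, adjusted p = 0.252). *Alas1* and the heme oxygenase gene *Hmox1* had an r of 0.357, and *Alas1* and the transferrin receptor gene *Tfrc* -0.412. *Alas1* with *Nr1d1*, which encodes a receptor that binds heme, had -0.371, *Alas1* with *Ppargc1a*, its coactivator, 0.129, and *Fech* with *Tfrc* 0.087. All of these last 5 changed sign under at least 1 other processing or with a mouse left out.

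Among the other heme genes, those of heme breakdown held the widest range between mice. *Hmox1*, the inducible heme oxygenase, had log2 ratios of -1.12, -1.03, -0.92, 1.47, 0.80, 0.72, 1.15, -1.44, -1.74 and -1.68 in mice 1 to 10. All of mice 4 to 7 were above the other 6, and the second *Hmox1* probe gave the same order, from -1.47 to 1.44. *Blvrb*, a biliverdin reductase, ran from -0.80 to 1.40 and *Blvra*, the other reductase, from -0.66 to 0.54. For *Hmox1*, *Blvra* and *Blvrb* mice 4 to 7 were highest in each of the 5 scalings. Of the 9 genes of heme breakdown and binding, 8 were tested and all 8 varied more in Cy5 than in the pool, beside 59.7% of all probes. Of these, 5 had their 4 highest values in mice 4 to 7, beside 19.2% of all probes. Besides the 3 just named they were *Hmox2* and *Pgrmc1*, which lost the order under median centring, and *Pgrmc1* also in the log ratio of the scanner software. *Hebp1* and *Pgrmc2*, which encode heme-binding proteins, were lowest in mice 4 to 7, though not under median centring. *Hebp1* ran from -1.12 in mouse 7 to 0.46 in mouse 9 and *Pgrmc2* from -0.65 in mouse 7 to 0.30 in mouse 8. *Cd163*, the macrophage receptor for hemoglobin, was not tested and ran from -0.28 to 0.60, with its 4 lowest values in mice 4 to 7 except in the deposited values.

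Transport and supply of the substrates was measured by 17 of 19 listed genes, of which 13 varied more in Cy5 than in the pool, beside 59.7% of all probes. Of the 17, 8 had their 4 lowest values in mice 4 to 7, beside 23.2% of all probes. Among the 8 were *Clpx* (-0.60 to 0.17) and *Lonp1* (-0.48 to 0.21), which encode subunits of mitochondrial ATP-dependent proteases. *Slc25a38* (-0.16 to 0.22), the glycine carrier, was another. None of the 8 kept this order under median centring, and 2 did in the deposited values. *Tmem14c* (-0.32 to 0.53), a porphyrin carrier, and *Slc48a1* (-0.50 to 0.87), a heme transporter of the lysosome, had their 4 highest values there in each of the 5 scalings.

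**Figure D5:**
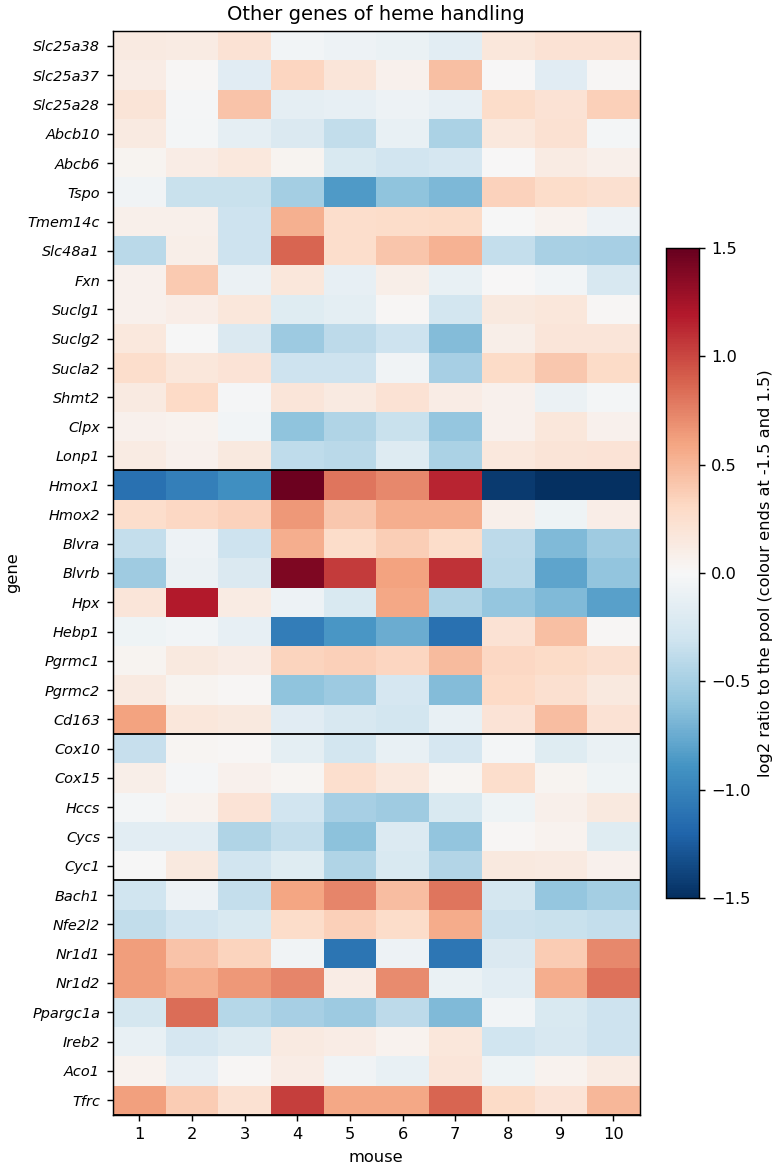
Log2 ratio to the common pool (colour, cut at -1.5 and 1.5) of other heme genes (rows) in the 10 mice (columns), with black lines between heme transport and supply, heme breakdown and binding, heme a and cytochrome c maturation, and regulators. The *Hmox1* row holds the widest range, from -1.74 in mouse 9 to 1.47 in mouse 4, and the rows of *Cox10* and *Cox15* are pale in every mouse.

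The genes that fit heme into the respiratory chain had a median SD of the log2 ratio of 0.23 over the 5 listed, beside 0.18 over all probes tested. Of the 5, *Cycs* (cytochrome c) and *Cyc1* (cytochrome c1) varied more in Cy5 than in the pool. *Cox10* and *Cox15*, which convert heme to heme a, and *Hccs*, which attaches heme to cytochrome c, did not pass. The *Hccs* probe was bright, with a median Cy5 signal of 114596, and its SDs were 0.16 in Cy5 and 0.14 in Cy3. The SD of its log2 ratio was 0.26, so its failure to pass does not show a narrow range. The signal of *Cox10* was low, from 54 to 86.5 in Cy5, and well above background on 8 arrays in each dye, which limits what its narrow range can show. The log2 ratios ran from -0.54 to 0.21 for *Hccs*, from -0.61 to 0.05 for *Cycs*, from -0.45 to 0.15 for *Cyc1*, from -0.35 to 0.02 for *Cox10* and from -0.06 to 0.26 for *Cox15*. *Hccs* had its 4 lowest values in mice 4 to 7, but not under median centring or in the deposited values.

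Among the regulators, 8 of 10 were expressed and 7 of these varied more in Cy5 than in the pool, beside 59.7% of all probes. *Bach1*, a heme-sensing repressor of *Hmox1*, ran from -0.58 to 0.80, *Nfe2l2*, the activator that competes with it, from -0.37 to 0.56, and *Ireb2*, an iron-responsive element binding protein, from -0.31 to 0.17. All 3 had their 4 highest values in mice 4 to 7 in each of the 5 scalings. In any 1 scaling, between 17.4% and 24.5% of all probes had this order. The share of probes that kept it in all 5 was not computed. *Aco1*, the other iron-responsive element binding protein, did not pass (-0.12 to 0.18). *Tfrc* lay between 0.20 and 1.04 on its brightest probe and between -0.18 and 0.44 on another probe, which did not pass the test.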

How the data were processed

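RNA of eWAT from 10 mice of 1 group was measured on 10 two-colour arrays, 1 per mouse. The authors deposited 1 scanner file per array, written by Agilent Feature Extraction 10.7.3.1, the tool in the submitters' processing notes, with annotation on mm9. These deposited files hold intensity values per spot and dye, with the local background, as scanned and not normalized. They also hold a log10 ratio (Cy5 over Cy3), for which the scanner software had subtracted background and normalized the dyes before the authors deposited it. A table of log2 values was also deposited by the authors. Its normalization is not given in the sources used here, its columns followed log2 Cy5 (r from 0.994 to 0.999, column medians from 8.39 to 8.44), and it served for differences between mice.

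The mean signal was corrected for background with normexp (offset 50) and normalized by loess within arrays, and channel values between arrays by Aquantile, in limma 3.58.1 and R 4.3.3. Control spots and outlier spots (247 to 344 per array) were left out, and spots of 1 probe were averaged, giving 55681 probes. A probe counted as expressed if 5 or more of the 10 arrays had it well above background in Cy5, and was tested for variance (25049 probes) if this held in both dyes. A gene was represented by its probe with the highest mean signal. Median Cy5 lay between 53 and 79 against a background of 32 to 37, no spot was saturated, and the number of arrays limits the precision.

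Variances of log2 Cy5 and Cy3 were compared by the Pitman-Morgan test, the slide by limma's moderated F test and relations by exact permutation of 6 mice, each at an adjusted p of 0.05, in Python 3.11.15 with numpy 2.4.6, pandas 2.3.3 and scipy 1.17.1. Tests were checked on simulated data. Mice were treated as clustered where they parted on the first component, or where the largest gap held 0.4 of the range with at least 3 mice on each side. Named genes are the members, the genes of the lists (heme transport and supply, heme breakdown and binding, heme a and cytochrome c maturation, regulators, adipocyte, erythroid, macrophage, sperm, epididymis, mesothelium, brown fat) and the 3 probes (5 for *Alas1* and *Alas2*) with the highest r over 10 mice. Some listed genes are not reported here. The members and lists were chosen with earlier results of these data known. Alternatives were no background subtraction, median centring, the scanner's log ratio, the deposited values, no normalization between arrays, other filters, the mean over probes, slide as a block, and leaving out mice.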

Additional observations from a re-analysis of the deposited data

Results flagged for a closer look

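Of 83 probes examined, none of the heme synthesis enzymes and 5 of the listed genes had 1 mouse far from the other 9, a share that chance gives to about 1 in 20. *Ppargc1a* was highest in mouse 2 at a log2 ratio of 0.84, with 0.585 of the whole range lying between this mouse and the next. The sperm genes *Prm1* and *Prm2* were highest in mouse 2 at -1.37 and -0.79, with 0.57 and 0.77 of the range. *Lcn12*, a gene of the epididymis, was highest in mouse 3 at 0.40 (0.55 of the range). *Krt8*, a keratin gene of the mesothelium list, was highest in mouse 2 at 1.91 (0.512 of the range). The list did not go together in this mouse. The keratin gene *Krt19* was also highest there at 0.65, but *Msln* was -0.96, *Upk3b* -0.98, *Lrrn4* -0.98 and *Wt1* -0.49. The cell type behind the *Krt8* value was not tested.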

How the results depend on the processing

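Across the results and alternatives compared, 212 values were classed as the same, by direction, side of the threshold or a move of less than 1 SD. Another 15 turned direction, 7 moved farther and 2 were weaker. Values classed as the same could still change in size. Under median centring 5 enzymes passed in place of 7, and the r of *Fech* with *Tfrc* was 0.819 in place of 0.087. Without the 2 mice farthest from the median, the r of *Alas2* with the erythroid list was 0.249 in place of 0.93. Without normalization between arrays, 4675 probes in place of 14964 and 1 of the 8 enzymes varied more in Cy5 than in the pool, and the cause was not tested. Median centring moved the mean log2 ratios to 0.81 for *Alas1*, 0.28 for *Alad*, 0.36 for *Uros*, 0.29 for *Urod*, 0.53 for *Cpox*, 0.43 for *Ppox* and 0.55 for *Fech*, all upward together with the median of all probes. Under it, 10184 probes varied more in Cy5. Several weak relations turned sign. Under median centring r was 0.416 for *Alas1* with *Nr1d1* and 0.774 for *Alas1* with *Tfrc*. In the deposited values it was -0.0324 for *Alas1* with *Ppargc1a*. Without the 2 mice farthest from the median it was -0.469 for *Alas1* with *Ppargc1a*, 0.862 with *Nr1d1* and 0.635 with *Tfrc*, and -0.405 for *Fech* with *Tfrc*. With slide as a block it was -0.326 for *Alas1* with *Ppargc1a*, 0.794 with *Tfrc* and -0.799 for *Fech* with *Tfrc*. That setting used the differences within all 5 slides, so all 10 mice entered in place of the 6 of the main r. Some of these slides hold both a mouse from mice 4 to 7 and a mouse outside them. The r with slide as a block thus include the gap between the 2 sets of mice and do not show the effect of slide alone. With 1 mouse left out, r ran from -0.549 to 0.833 for *Alas1* with *Hmox1*, from -0.418 to 0.222 with *Ppargc1a*, from -0.741 to 0.520 with *Nr1d1*, and from -0.307 to 0.272 for *Fech* with *Tfrc*. Leaving out mouse 10 gave the turned sign in each of these 4. For *Alas2* with the erythroid list it ran from 0.751 to 0.966. The count of probes ran from 13493 to 14422 and 7 enzymes passed each time. No paired analysis was possible because there was only 1 group. The small margin of the second *Uros* probe over its background left it untested.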

Other observations

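Genes of tissues that lie next to the fat pad, and genes of brown fat, were measured beside the enzymes. Of 6 sperm genes 3 were expressed, and the list mean was highest in mouse 2 at -1.02 and as low as -2.79 in mouse 7. Of 6 epididymis genes only *Lcn12* was expressed. All 6 mesothelium genes were expressed, with list means from -1.52 to -1.05 in mice 4 to 7 and from -0.52 to 0.33 in the others. Of the 6, *Msln*, *Krt19* and *Krt8* had their 4 lowest values in mice 4 to 7, beside 23.2% of all probes. The other 3 had a mixed order. None of the 6 had this order under median centring, and 2 had it in the deposited values. Of 5 brown fat genes 3 were expressed, with list means from -0.92 to -0.41 in mice 4 to 7 and from -0.01 to 0.41 in the others. The 3 did not go together: *Cidea* and *Cox8b* were lowest in mice 4 to 7. *Dio2* was highest there, from 0.26 to 0.48 against -0.42 to 0.14 in the others, though not in the deposited values. *Ucp1* was not well above background. The part of these lists in the values of the enzymes was not tested.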
